A study of Mus musculus with 13 samples.

Results

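The genes described here encode the proteins of the cytosolic ribosome. They were taken by symbol from the gene list of the series: Rpl or Rps with a number, also with the endings a, x, l or l1, together with Rplp0, Rplp1, Rplp2 and Rpsa, and without Rps6k kinases and pseudogenes. This rule uses no measured value and gave 83 of the 27998 genes, of which 52 encode proteins of the large subunit and 31 of the small subunit. Single-cell RNA sequencing was performed on wild-type C57Bl/6J mice, with the same genotype in every group and no treatment. The E8.5 and E10.5 samples were whole embryos without head and limbs, and the later samples, up to P3, were dissected hearts. A stage step from E10.5 to E12.5 is therefore also a step from embryo to heart, and the stage and the tissue cannot be told apart there. E10.5, E12.5, E14.5 and E16.5 had 2 libraries each, E8.5 had 1 library (replicate 2) and P3 had 1 matrix of 2 wells that the labels do not tie to single samples, so E8.5 and P3 entered no test.

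The ribosome reads messenger RNA on its small subunit and joins amino acids on its large subunit, and each subunit is built from ribosomal RNA and a set of proteins that a growing cell makes in nearly equal numbers. The messenger RNAs of these proteins are known to begin with a run of pyrimidines, the 5′ terminal oligopyrimidine tract, through which the growth kinase mTOR and the protein Larp1 control their translation. A few genes have a paralogue that is used in particular tissues, the best known in the heart being Rpl3l, which is made in striated muscle beside the general Rpl3.

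Because the members move largely together in the results below, the start of the messenger RNA is shown for some of those the results turn on. The lines give 20 bases before and 10 bases from the first listed start of a gene, read 5′ to 3′ along the gene from RefSeq (GRCm38.p6). The longest pyrimidine run near the start is in capitals (a C followed by at least 4 further C or T). The run marked in Rps27l ends before the listed start, and a shorter one just after the start is left in lower case. In Rps27l and Rpl22 the listed start lies inside the annotated gene, which begins at 66944624 and 152324436. Other starts of a gene were not read.
Rps6 (chr4:86857358-86857387, minus strand): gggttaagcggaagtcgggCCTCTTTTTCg
Rps19 (chr7:24884572-24884601, plus strand): agcactccgaaatctcgcgagactcgacgc
Rps27 (chr3:90213639-90213668, minus strand): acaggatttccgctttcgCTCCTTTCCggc
Rps27l (chr9:66946066-66946095, plus strand): cctctccaCTCCTCCCCgccgcctctatcc
Rpl35 (chr2:39005122-39005151, minus strand): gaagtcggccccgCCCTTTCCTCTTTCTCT
Rpl22l1 (chr3:28805488-28805517, plus strand): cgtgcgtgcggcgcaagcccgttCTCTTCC
Rpl22 (chr4:152325706-152325735, plus strand): ccgacttcgccctgggaaaagcaatagctg
Rpl3l (chr17:24727806-24727835, plus strand): cagctgagtgttctagctctgtcatttgac
A start region was matched for 62 of the 83 members. Such a run within 10 bases on either side of the start was found in 32 of them (51.6%), against 25.5% of 27025 genes. The letters CTTTC, which are themselves part of such a run, were found there in 10 members (16.1%) against 2.43% of all genes. CCGGAAG, the core that ETS factors are known to bind, was present on either strand of the window from 250 bases before to 50 after the start in 24 members (38.7%) against 9.12%, and TATAA in 27.4% against 25.5%. These are matches of letters at the first listed start. The windows of Rps19, Rpl22 and Rpl3l shown above hold no run, which does not cover other starts of these genes.

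The 10 matrices held 67141166 to 259041468 UMIs (molecules counted once after PCR), and their depth limits mainly the rare members. Barcodes with at least 2000 UMIs and at least 1% of UMIs from mitochondrial (mt-) genes were kept, and 4 classes were gated: Tnnt2-gated (cardiac troponin T at 10 or more per 10000 UMIs), Col1a1-gated (collagen I, likewise), Cdh5-gated (at least 2 UMIs of the endothelial cadherin) and globin-gated (at least 10% globin UMIs). A list of 9 cardiomyocyte genes summed to 239 to 346 per 10000 UMIs in Tnnt2-gated barcodes, to at most 9.55 in Cdh5-gated barcodes and to at most 30.7 in Col1a1-gated barcodes, the last at E12.5. A list of 7 endothelial genes summed to 13.5 to 29.5 in Cdh5-gated barcodes and to less than 1 in Tnnt2-gated barcodes. Pairs of libraries shared 14 to 181 barcodes, at most 1.90% of the smaller library. Kept Tnnt2-gated barcodes numbered 133 to 153 in the embryos and 1759 to 7048 in the hearts, while Col1a1-gated barcodes numbered only 14 to 34 in the embryos and 58 and 163 at E12.5. In the counting by Cell Ranger, a read enters only if it maps to 1 gene, and ribosomal protein genes have many processed pseudogenes of nearly the same sequence, so the level of a single member depends on how many of its reads were unique.

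The members made up a large part of the messenger RNA counted. From E10.5 on, that part was lower at each later stage in cardiomyocyte-gated barcodes, while in endothelial-gated and collagen-gated barcodes of the hearts it stayed above 33% until E16.5. Over all kept barcodes, the share of UMIs from the 83 members was 35.8% at E8.5, then 36.7% and 37.0% at E10.5, then 27.9% and 28.6% at E12.5, then 24.8% and 25% at E14.5, then 22.1% and 21.3% at E16.5, and P3 had 15%. In Tnnt2-gated barcodes the share was 28.1% at E8.5, then 30.5% and 30.8% at E10.5, then 23.4% and 24.0% at E12.5, then 21.5% and 21.4% at E14.5, then 18.5% and 18% at E16.5, and P3 had 10.3%. The libraries of successive stages from E10.5 onwards did not overlap. In Cdh5-gated barcodes it was 35.4% at E8.5, then 38.6% and 39.4% at E10.5, then 36.0% and 37.1% at E12.5, then 35.5% and 36.0% at E14.5, then 35.8% and 34.5% at E16.5, and P3 had 29.7%. In Col1a1-gated barcodes it was 33.7% and 34.2% at E12.5, then 36.2% and 35.0% at E14.5, then 37.3% and 36.3% at E16.5, and P3 had 27.4%. The cardiomyocyte-gated values of every heart stage lay below all endothelial-gated and collagen-gated values of that stage.

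**Figure D1:**
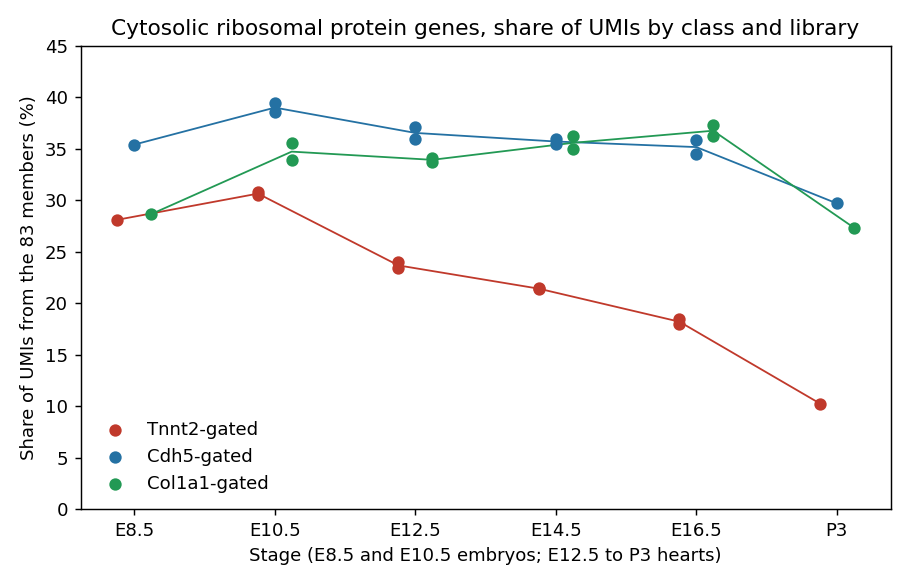
The share of UMIs from the 83 ribosomal protein genes (vertical axis, percent) is plotted by stage (horizontal axis), with 1 point per library and gated class and lines through the stage means. The Tnnt2-gated points run from 30.5% and 30.8% at E10.5 down to 10.3% at P3, while the Cdh5-gated points stay between 34.5% and 39.4% from E8.5 to E16.5, and the Col1a1-gated point of E8.5 rests on 14 barcodes.

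From E12.5 to E16.5 the share in Tnnt2-gated barcodes differed by -5.47 percentage points (SD 0.545, n = 2 libraries a stage), in Cdh5-gated barcodes by -1.38 (SD 1.21) and in Col1a1-gated barcodes by 2.83 (SD 0.783). Each SD here is the square root of the summed variances of the 2 stages, each taken over its 2 libraries. The endothelial difference was close to the spread between its libraries, and the other differences were several times theirs. Within the 6 heart libraries of E12.5 to E16.5, Tnnt2-gated minus Cdh5-gated share was -14.7 points (SD 1.89 over 6 libraries) and Tnnt2-gated minus Col1a1-gated share -14.3 points (SD 3.73). Both SDs hold the change between stages as well as the spread between libraries, and the gap to Col1a1-gated barcodes widened from E12.5 to E16.5. The small-subunit members made up 40.1% to 43.2% of the member UMIs in the kept barcodes of every class and library, so the balance of the subunits varied little beside the total. No p is given for the share, which is a sum over chosen genes.

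Mitochondrial UMIs ran in the opposite direction in the same barcodes, and their part in the result was not tested. The median mt- share of Tnnt2-gated barcodes was 4.3% and 4.02% at E10.5, then 6.54% and 6.98% at E12.5, then 8.64% and 8.51% at E14.5, then 10.9% and 11.3% at E16.5, and P3 had 22.1%, whereas it stayed between 1.83% and 4.34% in Cdh5-gated barcodes. With mt- genes taken out of the total, the member share of Tnnt2-gated barcodes was 31.9% and 32.1% at E10.5, then 25.2% and 25.9% at E12.5, then 23.8% and 23.6% at E14.5, then 21.1% and 20.5% at E16.5, and P3 had 13.1%. The order of the stages was thus kept. Within 1 range of mt- share, 5% to 10%, the members took 23.5% and 24.4% at E12.5, then 22.0% and 21.9% at E14.5, then 20% and 19.5% at E16.5. In the range of 10% to 20%, which held the most E16.5 barcodes (1641 and 1727), the order was another, with 19.1% and 18.9% at E12.5 (200 and 307 barcodes), then 20.8% and 20.5% at E14.5, then 18.1% and 17.7% at E16.5, and P3 had 11.3%. With mt- genes out of the total these were 21.8% and 21.6%, then 23.7% and 23.4%, then 20.7% and 20.2%, and 13.4%. From 20% to 30% they were 10.8% in 1 library of E12.5, then 13.6% and 13.7% at E14.5, then 11.9% and 11.8% at E16.5, and P3 had 9.75%. In the range of 1% to 5% the stages overlapped, with 25.5% and 26.5% at E12.5, then 24.0% and 23.5% at E14.5, then 27.3% and 23.9% at E16.5 (106 and 87 barcodes), while P3 had 21.3% (52 barcodes). Tnnt2-gated barcodes with more than 30% mt- UMIs had lower shares, with 7.30% and 5.75% at E12.5, then 3.95% and 4.21% at E14.5, then 3.16% and 3.52% at E16.5, in 43 to 473 barcodes, while P3 had 7.20% (536 barcodes). With mt- genes out of the total these were 14.7% and 12.8% at E12.5, then 11.3% and 11.4% at E14.5, then 10.3% in both E16.5 libraries, and P3 had 11.3%.

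Depth and cell cycle were compared in the same way. Tnnt2-gated barcodes of 10000 to 20000 UMIs had 21.9% and 22.9% at E12.5, then 22.2% and 22.1% at E14.5, then 18.9% and 18.5% at E16.5, and P3 had 9.94%, so at this depth the E12.5 and E14.5 libraries overlapped. For the cell cycle each barcode was thinned to 2000 UMIs, and both the G2/M UMIs and the member share were counted in these. Tnnt2-gated barcodes with at least 2 such UMIs of 12 G2/M genes had a median member share of 23.5% and 24.4% at E12.5 and 18.3% and 17.4% at E16.5. Those with none had 22.9% and 23.4% and 18.1% and 17.8%. The medians of a library thus lay close together in cardiomyocyte-gated barcodes. In Cdh5-gated barcodes they lay farther apart, with 33.9% and 35.0% against 37.0% and 38.1% at E12.5. There the barcodes with at least 2 G2/M UMIs were lower and deeper (median 23240 and 22690 against 17020 and 17620 UMIs before thinning). Barcodes of at most 100 UMIs, which carry free RNA, held member shares of 26.2% and 26.5% at E12.5, then 21.6% and 21.5% at E14.5, then 19.3% and 20.5% at E16.5, below the share over all kept barcodes of each library.

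In globin-gated barcodes globin, the oxygen carrier of red cells, takes a large part of the total by the gate itself. The member share is therefore also given with globin and mt- genes out of the total, which raises it by arithmetic. The share was 33.5% at E8.5 (77 barcodes) and 34.4% and 33.5% at E10.5 (222 and 200 barcodes). In the hearts only 6 to 31 globin-gated barcodes were kept and their share was 11.9% and 20.8% at E12.5, then 8.90% and 12.7% at E14.5, then 4.74% and 5.57% at E16.5, and P3 had 9.19%. Most globin-gated barcodes of the hearts fell below the mitochondrial floor of 1%, and in these 311 to 687 barcodes of E12.5 to E16.5 the share was 6.66% and 7.31%, then 1.63% and 1.69%, then 0.958% and 1.04%, where globin took a median of 80.7% to 96.6% of UMIs. With mt- and globin genes out of the total, the member share was 43.7% at E8.5 and 47.6% and 46.9% at E10.5. The same measure in the kept barcodes of the hearts was 31.9% and 35.0% at E12.5, then 31.8% and 29.9% at E14.5, then 30.6% and 36.2% at E16.5, and P3 had 23.6%. Below the floor it was 22.9% to 36.6% from E12.5 to E16.5. The kept barcodes of the hearts also held markers of other cells: 6 erythroid genes summed to 18.2 to 19.1 per 10000 UMIs and 9 cardiomyocyte genes to at most 0.377 in the embryos, whereas in the hearts the erythroid genes summed to 5.84 to 13.4 and the cardiomyocyte genes to 4.26 to 30.9. At P3 7 fibroblast genes summed to 35.7 and 6 macrophage genes to 13.0, and the part of these cells in the heart values was not tested.

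The change from E10.5 to E12.5 in Tnnt2-gated barcodes asked how the members differed between cardiomyocyte-gated cells of the embryo and of the early heart. UMIs were summed per class and library, levels are given as UMIs per 1000000 UMIs of that sum (CPM), and a gene was called at an adjusted p under 0.05 in a fit across all genes. The labels give the libraries of a stage the same replicate number, and replicates 1 and 2 are named here from the bracketed sample names. The labels do not tie the libraries to separate animals, so these tests measure the spread between the libraries, which may be technical. Of 82 members tested 51 fell and 1, Rpl3l, was called higher, while 17.7% of the 14556 genes tested were called lower and 20.6% higher. The median log2 fold change of the members was -0.26 and that of all genes 0.06. Of those that fell, the farthest was Rpl35, a protein near the exit of the peptide tunnel, at 3084 and 3387 CPM at E10.5 and 1561 and 1965 at E12.5 (log2 fold change -0.79, SE 0.09). Rps26, at the messenger RNA exit, fell by 0.68 (SE 0.08), Rpl14 by 0.63, Rps2 by 0.61 and Rpl10, which completes the large subunit late in its assembly, by 0.58. The stalk protein Rplp0 fell by 0.53 and its partner Rplp2 by 0.21, while Rplp1 was at -0.10 and was not called. Rpl30 (0.14) and Rpl7a (0.08) lay at the upper end and were not called. Rpl3l had 0 UMIs at E10.5 and its call was lost without either E10.5 library. Without E10.5 replicate 2, 32 members were called lower, and with gates of doubled threshold 22. Markers of other cells moved in the same sums, and their part in the result was not tested: 6 of 6 neural genes fell, from a sum of 0.753 and 0.505 per 10000 UMIs to 0.0303 and 0.0351, and 6 of 7 globin genes rose, from 5.18 and 5.39 to 22.0 and 20.5.

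From E12.5 to E14.5 the step was smaller. In Tnnt2-gated barcodes 15 of 82 members fell and 0 rose (edgeR's quasi-likelihood test), with 16.3% of all genes called lower and 18.7% higher, so in this fit the share of members called (18.3%) was near the background. The count of lower members was 40 without the mitochondrial floor, 39 under the mitochondrial ceilings of the study, 36 with library totals only and 6 with barcodes thinned to 2000 UMIs. At an unadjusted p of 0.05, 27 members would pass, and DESeq2 called 28 lower and 1 higher. The member median was -0.14 and that of all genes 0.01. Rps20, a protein of the head of the small subunit, had 3603 and 3416 CPM at E12.5 and 2642 and 2645 at E14.5 (log2 fold change -0.39, SE 0.08), and Rps12 (-0.35), Rps23 (-0.30) and Rpl12 (-0.30) were also called lower. Rps19, which is needed to mature the small-subunit RNA, fell by 0.27. The count depended on single libraries: it was 47, with 6 called higher, without E12.5 replicate 2, 4 without E14.5 replicate 1, and 2 without E14.5 replicate 2, where Rps23 and Rpl12 were no longer called. In the same sums 6 of 7 endothelial genes fell, from 0.330 and 0.308 per 10000 UMIs to 0.169 and 0.179, as did 5 of 7 globin genes, from 22.0 and 20.5 to 11.1 and 9.64, and 3 of 4 erythroid genes tested, and their part in the result was not tested.

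From E14.5 to E16.5 the members as a group stayed near the middle of all genes. In Tnnt2-gated barcodes 6 of 82 fell and 2 rose, where 19.9% of all genes were called lower and 20% higher, and the medians were -0.05 for the members and -0.01 for all genes. Those that fell were led by Rpl4 (-0.26), Rpl3 (-0.25), Rpl13a (-0.22) and Rps6 (-0.22). Rpl3l rose by 1.63 (SE 0.19) and Rps29 by 0.37 (SE 0.13). This comparison turned on the scaling more than any other: TMM, the scaling used here, takes the bulk of genes as unchanged, and with library totals only, where the median of all genes was -0.22, 64 members were called lower, with 41.6% of all genes lower, and Rps29 was not called. Without E14.5 replicate 1, E14.5 replicate 2 or E16.5 replicate 1, 0 members were called lower, and without E16.5 replicate 2 there were 2. The calls of Rps29, Rpl3, Rpl13a and Rps6 were lost whichever of the 4 libraries was left out, that of Rpl4 in all but the one without E16.5 replicate 2, and that of Rpl3l was kept each time. In these sums 6 of 9 cardiomyocyte genes rose, and of 7 globin genes 4 rose and 3 fell.

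The P3 matrix allows no test, but its Tnnt2-gated values were lower again. Rps6, the target of the growth-controlled S6 kinases, had 2997 and 3025 CPM at E10.5, then 2136 and 1982 at E12.5, then 1835 and 1833 at E14.5, then 1363 and 1353 at E16.5, and P3 had 735. Differences between P3 and E16.5 were taken on the log2 scale after adding 1 to each CPM, which shrinks those of scarce members. They cover the members with at least 100 UMIs over the P3 and E16.5 sums of a class. Of 81 such members, 79 were lower at P3 than at E16.5, with a median log2 difference of -0.80. The exceptions were Rpl3l (1.37) and Rpl6l (1.81). In Cdh5-gated barcodes 72 of 80 were lower at P3 with a median of -0.20, and in Col1a1-gated barcodes 78 of 80 with a median of -0.39. The 2 wells of P3 stood apart outside the cardiomyocyte gate: the member share was 33.2% and 25.4% in Cdh5-gated, 31.1% and 25.2% in Col1a1-gated, and 10.7% and 9.11% in Tnnt2-gated barcodes. The P3 matrix was filtered to 10964 barcodes and carries an earlier Cell Ranger version in its header, so the stage cannot be told apart from the processing there.

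In Cdh5-gated barcodes most members fell modestly over the same days. From E12.5 to E16.5, 50 of 81 members tested fell and 0 rose (edgeR's quasi-likelihood test), while 22.6% of 12468 genes were called lower and 20.8% higher. At an unadjusted p of 0.05, 56 members would pass, and DESeq2 called 0 higher. The median was -0.20, beside 0.00 for all genes. Rpl10a had 3221 and 3107 CPM at E12.5 and 2556 and 2390 at E16.5 and fell by 0.45 (SE 0.07). Rpsa, the laminin-receptor protein of the small subunit, fell by 0.39, Rpl12 by 0.38, Rpl3 by 0.38, and Rpl11 and Rpl5, which bind the p53 regulator Mdm2 when assembly is disturbed, by 0.35 and 0.31. Rps29 (0.28), Rps27 (0.24), Rps21 (0.18), Rpl35 (0.16) and Rpl38 (0.15) lay at the upper end and were not called. With library totals only 30 members were called lower and 5 higher, and without E16.5 replicate 2 there were 26 lower. Without E12.5 replicate 2, 8 were called higher, Rps29 and Rps27 among them. Rps29 was also called higher with the replicate block (0.30), with library totals only, without the filter on low counts and with thinned barcodes, and Rps27 in the last 3 of these.

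In Col1a1-gated barcodes some members rose and the others were not called. From E12.5 to E16.5, 26 of 79 members tested were called higher and 0 lower (edgeR's quasi-likelihood test), while 11.7% of 10488 genes were called higher and 22.2% in either direction, DESeq2 called 0 members lower, and 45 would pass at an unadjusted p of 0.05. The median was 0.22, beside 0.00 for all genes. Rpl35 had 2424 and 3003 CPM at E12.5 and 3644 and 3984 at E16.5 and rose by 0.62 (SE 0.11). Rps29 rose by 0.59, Rpl38, known for selective translation of Hox messages, by 0.53, Rpl39 by 0.51, Rps28 by 0.49, Rpl10 by 0.48 and Rps4x by 0.44. Rps27l (-0.19) and Rpl29 (-0.02) were among the lowest and were not called. The cells under this gate also differed between the stages: 7 fibroblast genes summed to 32.9 and 28.1 per 10000 UMIs at E12.5 and 107 and 99.3 at E16.5, with Dcn, a fibroblast matrix protein, from 6.65 and 4.26 to 24.3 and 24.7, and 9 cardiomyocyte genes from 30.7 and 25.6 to 8.43 and 7.36, and their part in the result was not tested. The count was 16 without E12.5 replicate 2, 9 without E16.5 replicate 1 and 15 without E16.5 replicate 2, where 58 and 163 barcodes stood behind E12.5. It was 56 with gate thresholds divided by 2 and 50 with barcodes thinned to 2000 UMIs. With doubled gate thresholds it was 10, and Rps29, Rpl38, Rpl39 and Rps28 were not called. Those 10 are 12.7% of the members, near the 11.7% of all genes called higher in the main fit. The share of all genes called higher with doubled thresholds is not given here. The member median there was 0.12, beside 0.04 for all genes. Leaving out 1 library moved Rps28 between 0.148 and 0.997, Rps29 between 0.332 and 0.953 and Rpl38 between 0.313 and 0.819, the lowest value of each being that without E12.5 replicate 1. Without that library Rps28 and Rpl38 were not called, and Rps28 was also not called without E16.5 replicate 1, with library totals only or by DESeq2.

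The difference between these changes was tested over the 6 heart libraries, a test chosen after the values had been seen. The change from E12.5 to E16.5 was lower in Cdh5-gated than in Col1a1-gated barcodes for 76 of 82 members (12.6% of 13498 genes lower, 7.30% higher) and higher for 0 (edgeR's quasi-likelihood test; 78 at an unadjusted p of 0.05 in either direction), with a member median of -0.42 and a median of all genes of -0.09. It was lower in Tnnt2-gated than in Col1a1-gated barcodes for 74 of 82 (15.5% of genes lower, 10.8% higher) and higher for 0 (76 at an unadjusted p of 0.05), with medians of -0.44 and -0.07. The members farthest down in the first test, apart from the scarce Rpl39l and Rpl6l, were Rpl10a (-0.67), Rpl10 (-0.65) and Rpsa (-0.61), and in the second, apart from Rpl39l, Rpl3l and Rpl6l, Rps12 (-0.83) and Rps6 (-0.72). Rps27l was at -0.16 and 0.12 and was called in neither. Both tests share the Col1a1-gated sums, and no second tool was run on them. Other genes moved in the same fits, and their part in the result was not tested. Of 12 G2/M genes 11 were lower in the first test and 9 in the second. Of 7 fibroblast genes 4 were lower in the first and 7 in the second, with 0 higher in either list.

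Within the 6 heart libraries the 3 classes were compared with the library as a block, since they came from the same suspension. Tnnt2-gated barcodes were lower than Col1a1-gated ones in 77 of 80 members and higher in 1 (34.8% and 35.9% of 12324 genes), with a member median of -0.57 and a median of all genes of 0.01. They were lower than Cdh5-gated barcodes in 79 of 80 and higher in 1 (36.0% and 38.8% of genes), with medians of -0.65 and 0.03. The 1 higher member was Rps27l in both. These comparisons share the Tnnt2-gated sums. The counts stayed between 76 and 78 in the first and 78 and 79 in the second when any 1 library was left out.

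**Figure D2:**
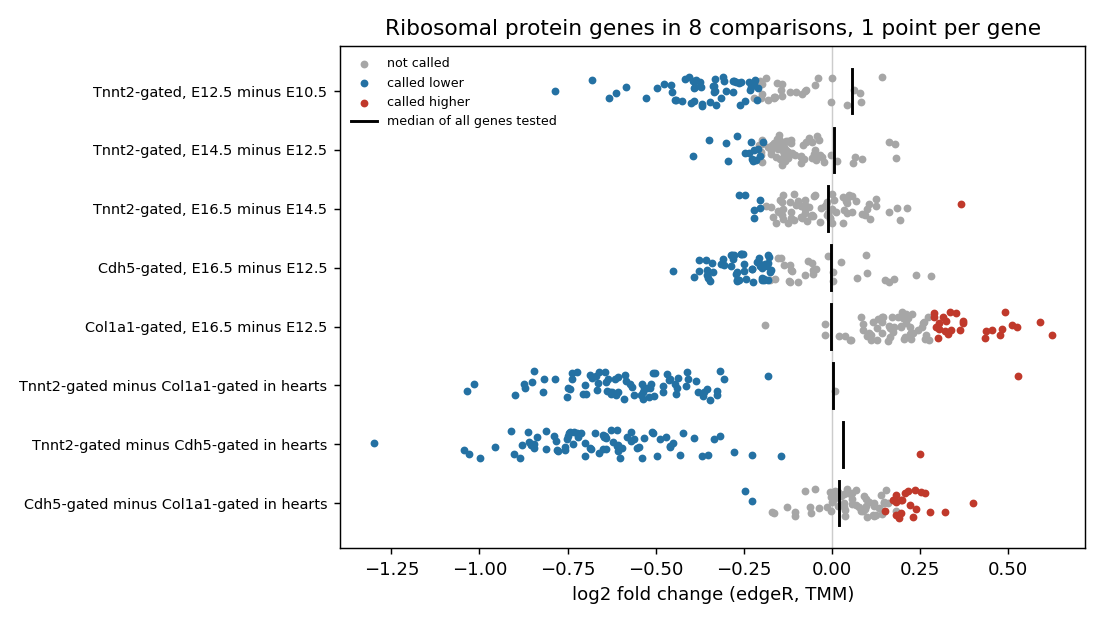
Each point is 1 ribosomal protein gene in 1 of the 8 tested comparisons (rows), placed by its log2 fold change (horizontal axis) and coloured by its call, with a black bar at the median of all genes tested; the scarce Rpl3l, Rpl39l and Rpl6l are left out. Nearly all points of the 2 comparisons of Tnnt2-gated with other classes lie below 0 with 1 member called higher in each, and the Col1a1-gated points of E16.5 minus E12.5 lie above 0 with a median of 0.22.

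The counts depend on how the libraries are scaled. With library totals only, the members called higher and lower in Tnnt2-gated barcodes were 1 and 69 from E10.5 to E12.5 (17% and 21% of all genes), 1 and 36 from E12.5 to E14.5 (16.6% and 17.3%) and 1 and 64 from E14.5 to E16.5 (9.64% and 41.6%). From E12.5 to E16.5 they were 5 and 30 in Cdh5-gated (25.3% and 17.6%) and 11 and 1 in Col1a1-gated barcodes (8.68% and 15.2%, median of all genes -0.14). In the hearts they were 1 and 79 for Tnnt2-gated against Col1a1-gated (28.7% and 42%, median of all genes -0.18), 0 and 79 against Cdh5-gated (33.9% and 39.7%), and 5 and 4 for Cdh5-gated against Col1a1-gated barcodes (20.2% and 28.2%). The lower level in the cardiomyocyte gate thus stood under both scalings, and the small excess of higher members in Cdh5-gated over Col1a1-gated barcodes did not.

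Several of the members farthest down in the cardiomyocyte gate belong to the small subunit. Rps6 had 2136 and 1982 CPM in Tnnt2-gated, 4971 and 4772 in Cdh5-gated and 3340 and 3307 in Col1a1-gated barcodes at E12.5, and 1363 and 1353, 4338 and 4302, and 3780 and 3772 at E16.5. Its log2 fold change was -1.30 (SE 0.09) against Cdh5-gated and -0.90 (SE 0.09) against Col1a1-gated barcodes. Rps19, which is mutated in Diamond-Blackfan anaemia, was at -1.03 (SE 0.08) in both comparisons. In Tnnt2-gated barcodes it went from 3781 and 3732 at E12.5 to 2425 and 2389 at E16.5, while in Cdh5-gated barcodes it stood at 6757 and 6667 and at 6980 and 6707. Rps20 (-1.04) and Rps27 (-0.998) followed against Cdh5-gated barcodes, and Rps12 (-0.87) and Rps27 (-0.87) against Col1a1-gated ones, where the large-subunit paralogue Rpl22l1 (-1.01) lay next to Rps19. The median of the small-subunit members was -0.70 against Cdh5-gated and -0.64 against Col1a1-gated barcodes, beside -0.63 and -0.54 for the large subunit.

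In the large subunit the stalk proteins, which recruit the elongation factors, did not move as a unit. Rplp0, its base, was at -0.74 (SE 0.07) against Cdh5-gated and -0.64 (SE 0.07) against Col1a1-gated barcodes. Rplp2 was at -0.53 and -0.39 (SE 0.06 each) and Rplp1 at -0.23 and -0.30 (SE 0.07 each), and all 3 were called lower in both. The call of Rplp1 was lost against both classes without the filter on low counts, against Cdh5-gated barcodes also without the mitochondrial floor and with thinned barcodes, and against Col1a1-gated ones with gate thresholds divided by 2. Rplp1 in Tnnt2-gated barcodes had 6625 and 6423 CPM at E12.5 and 5499 and 5276 at E16.5, beside 7617 and 7400 and 7593 and 7256 in Cdh5-gated barcodes. Rpl5 was at -0.32 in both comparisons and its partner in the 5S particle, Rpl11, at -0.71 and -0.59. Rpl13a was at -0.78 and -0.74, Rpsa at -0.46 and -0.51 and Rps27a, made as a fusion with ubiquitin, at -0.85 and -0.70. Rpl36 stood apart: it had 3083, 3726, 3282, 3329, 3321 and 3204 CPM in the 6 Tnnt2-gated sums and 3378, 3994, 3876, 3772, 3826 and 3696 in the Col1a1-gated ones, with a log2 fold change of 0.01 (SE 0.06) that was not called. Against Cdh5-gated barcodes it was at -0.14 (SE 0.06) and called lower, a call lost without either library of E12.5 or of E14.5 and in 5 of 12 alternatives of the processing. With library totals only, Rpl36 was at -0.18 against Col1a1-gated barcodes and was called lower.

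Over the heart libraries together, endothelial-gated and collagen-gated barcodes differed little, but their order changed with stage. At E12.5 the member share was 36.0% and 37.1% in Cdh5-gated and 33.7% and 34.2% in Col1a1-gated barcodes. At E16.5 it was 35.8% and 34.5% in Cdh5-gated and 37.3% and 36.3% in Col1a1-gated barcodes. The values below are averages over these stages. Cdh5-gated barcodes were higher in 20 and lower in 2 of 80 members (25.1% and 25% of 12324 genes), with a median of 0.09 beside 0.02. Rps6 (0.40, SE 0.09) led, followed by Rpl27 (0.32), Rps27l (0.28), Rps29 (0.26) and Rpl37a (0.25), and Rps26 (-0.25) and Rpl22l1 (-0.23) were called lower. The count of higher members was 8 without E12.5 replicate 1, 7 without E12.5 replicate 2 and 11 without E14.5 replicate 2. It was 16 without E14.5 replicate 1, 23 without E16.5 replicate 1 and 30 without E16.5 replicate 2. The calls of Rps26 and Rpl22l1 were lost without E14.5 replicate 1 or E16.5 replicate 2, and that of Rpl22l1 also without E14.5 replicate 2 or E16.5 replicate 1. Both were also lost without the filter on low counts and with gate thresholds divided by 2.

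The clearest exception in the cardiomyocyte gate was Rpl3l (chr17:24727826-24736143), the striated-muscle paralogue of Rpl3 (chr15:80077781-80083406). In Tnnt2-gated barcodes its level was 1.21 CPM at E8.5 (4 UMIs), 0 in both E10.5 libraries, then 0.854 and 0.918 at E12.5, then 0.915 and 1.18 at E14.5, then 2.49 and 3.05 at E16.5, and P3 had 8.74 (960 UMIs, exact Poisson 95% interval 8.19 to 9.31, counting error only). The E12.5 and E14.5 libraries overlapped within their intervals, both E16.5 libraries lay above them, and the 2 wells of P3 were at 8.80 and 8.59. From E14.5 to E16.5 Rpl3l rose by 1.63 on the log2 scale (SE 0.19, adjusted p = 2.61e-06 by edgeR's quasi-likelihood test and Benjamini-Hochberg adjustment), in both libraries of E16.5. It was called in all alternatives but 1, in which each barcode was thinned to 2000 UMIs (1.16). From E12.5 to E14.5 the difference was 0.23 (SE 0.24) and was not called. Between E10.5 and E12.5 it was called higher, but its fitted value rests on 0 UMIs at E10.5, where a count of 0 allows up to 1.23 and 1.32 CPM (taken as 3 UMIs, a one-sided limit unlike the two-sided intervals above), above the levels measured at E12.5.

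Rpl3 ran the other way, from 1957 and 2089 CPM at E10.5 to 1533 and 1474 at E12.5, then 1431 and 1457 at E14.5, then 1028 and 1073 at E16.5, and P3 had 659. Of the UMIs of both genes, Rpl3l had 0.0557% and 0.0622% at E12.5, then 0.0639% and 0.0809% at E14.5, then 0.241% and 0.283% at E16.5, and P3 had 1.31%. Rpl3l was found in 2.1% and 2.11% of Tnnt2-gated barcodes at E12.5, then 1.58% and 1.69% at E14.5, then 4.41% and 3.96% at E16.5, and P3 had 12.2%, at median depths of 13510 to 25212 UMIs. In Cdh5-gated and Col1a1-gated barcodes of the hearts it had 0 to 5 UMIs per library, at most 0.440 CPM, and was found in at most 0.894% of barcodes, at median depths of 8147 to 23376 UMIs. Free RNA of E16.5 held it at 2.71 and 1.99 CPM (16 and 9 UMIs), near the level of the Tnnt2-gated barcodes.

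**Figure D3:**
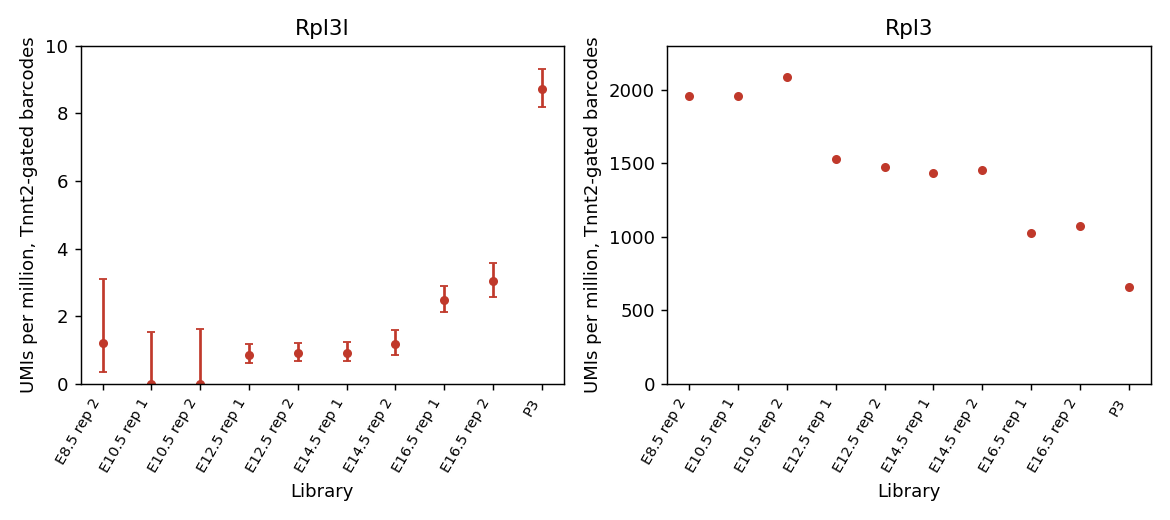
Levels of Rpl3l (left) and Rpl3 (right) in Tnnt2-gated barcodes are plotted per library in CPM, with exact Poisson 95% intervals for Rpl3l that cover counting error only. Rpl3l lies at 0.854 to 1.18 at E12.5 and E14.5, at 2.49 and 3.05 at E16.5 and at 8.74 at P3, while Rpl3 goes from 1957 and 2089 at E10.5 to 659 at P3.

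Rps27l (chr9:66944624-66949522) and Rps27 (chr3:90212667-90213648) split by class. Rps27l, a p53-responsive paralogue, was the 1 member called higher in Tnnt2-gated than in Col1a1-gated barcodes (0.53, SE 0.07) and than in Cdh5-gated barcodes (0.25, SE 0.07), while Rps27 was at -0.87 and -0.998. Of the UMIs of both genes, Rps27l had 25.7% and 18.1% at E12.5, then 20.9% and 20.1% at E14.5, then 21.3% and 19.8% at E16.5, and P3 had 23.4% in Tnnt2-gated barcodes. In Cdh5-gated barcodes it had 13.5% and 9.51%, 11.2% and 11.5%, 7.68% and 7.70%, and 8.70%, and in Col1a1-gated barcodes 14.1% and 9.35%, 8.12% and 8.44%, 8.06% and 7.79%, and 11.2%. The Tnnt2-gated values of the hearts did not overlap with either. In the embryos the order was another: at E8.5 the part was 27.2% in Tnnt2-gated, 31.0% in Cdh5-gated and 29% in Col1a1-gated barcodes (14 barcodes), and at E10.5 it was 21.7% and 20.5%, 25.7% and 24.3%, and 16.1% and 15.8% (32 and 34 barcodes). The higher call against Cdh5-gated barcodes was lost with library totals only (0.14) and with doubled gate thresholds (0.19).

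Rpl22l1 (chr3:28805508-28807424), the paralogue of the RNA-binding protein Rpl22, went the opposite way. It was at -1.01 (SE 0.08) in Tnnt2-gated against Col1a1-gated barcodes, where Rpl22 was at -0.52, and at -0.79 against Cdh5-gated barcodes, where Rpl22 was at -0.66. Its part of the pair was 39.7% to 41.5% in Tnnt2-gated, 41.0% to 45% in Cdh5-gated and 48.3% to 49.5% in Col1a1-gated barcodes of the 6 heart libraries, and 39.0%, 45% and 50.6% at P3. The Col1a1-gated range lay above both others.

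**Figure D4:**
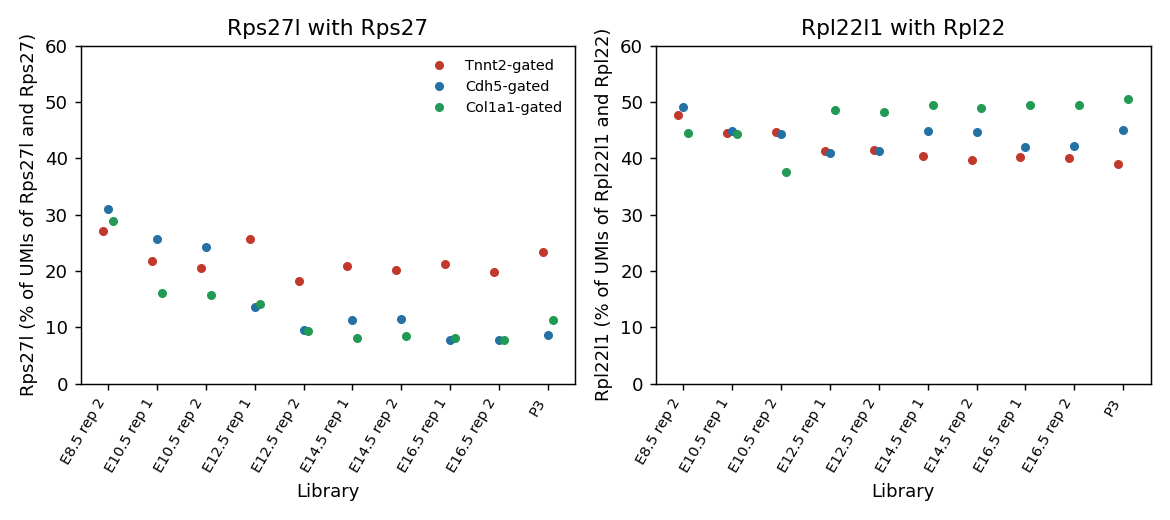
The part of a paralogue in the UMIs of its pair (vertical axis, percent) is plotted per library for Rps27l with Rps27 (left) and Rpl22l1 with Rpl22 (right) in 3 gated classes. Rps27l is higher in Tnnt2-gated barcodes at every heart stage (18.1% to 25.7%), and Rpl22l1 is highest in Col1a1-gated barcodes of the hearts (48.3% to 50.6%).

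The other paralogues were scarce. All but 5 members reached at least 500 CPM in each of the 3 classes in each of the 6 heart libraries, and the 5 below 100 were Rpl3l, Rpl6l, Rpl7l1, Rpl10l and Rpl39l. Rpl7l1 had 36.7 to 42.8 CPM in Tnnt2-gated and 46.7 to 58.0 in Cdh5-gated barcodes of E12.5 to E16.5, and was called lower than in Cdh5-gated (-0.28) and Col1a1-gated barcodes (-0.18), the last call being lost without E16.5 replicate 2 and in 5 of 12 alternatives of the processing. Rpl10l, a testis paralogue, had 0 or 1 UMI in each class and library of the hearts, which allows at most 3.14 CPM, and entered no test. Rpl39l, also of testis, had 0.0863 to 0.438 CPM in Tnnt2-gated barcodes of the hearts before birth and 1.57 to 2.80 in Cdh5-gated barcodes of the embryos, from 10 to 30 UMIs in 8 to 11 barcodes.

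Rpl6l (chr10:111125836-111126780), a copy of Rpl6 whose reads can be shared with it, was picked for P3 after its values were seen. It had 1.32 to 2.03 CPM in Tnnt2-gated barcodes of E12.5 to E16.5 and 8.27 at P3. In Cdh5-gated barcodes the values were 2.28 to 3.50 and 38.7, and in Col1a1-gated barcodes 1.06 to 4.52 and 46.8. The wells of P3 differed, with 6.08 and 13.9 in Tnnt2-gated, 18.6 and 63.0 in Cdh5-gated and 15.4 and 65.1 in Col1a1-gated barcodes, while Rpl6 had 1025, 3348 and 3125 CPM at P3 in the 3 classes.

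The libraries of E12.5 differed in a particular set of members, and this bears on the comparisons with that stage. Rps28 had 2072 CPM in replicate 1 and 3978 in replicate 2 of Tnnt2-gated barcodes, 3535 and 6616 in Cdh5-gated and 3522 and 6343 in Col1a1-gated barcodes. Replicate 2 was higher by 0.94, 0.90 and 0.85 on the log2 scale for Rps28, by 0.68, 0.65 and 0.62 for Rps29, by 0.58, 0.58 and 0.51 for Rpl38 and by 0.56, 0.53 and 0.56 for Rps27 in the 3 classes. Over the 78 members of at least 100 CPM, the SD of the difference between replicates was 0.21, then 0.20 and 0.20 at E12.5 and 0.03 to 0.08 at the other stages. The differences of the 78 members at E12.5 ran alike in the classes (Pearson's r 0.997 for Tnnt2-gated with Cdh5-gated, across genes of the same 2 libraries).

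These members, picked after their values had been seen, share a short coding sequence. Coding lengths run from 138 bases (Rpl41) to 1257 (Rpl4) with a median of 462 over 82 members. The 9 members shorter than 300 bases were higher in E12.5 replicate 2 by a median of 0.40, 0.41 and 0.39 in the 3 classes, against -0.07, -0.05 and -0.06 for longer members, while 98 to 105 other genes that short were at -0.04, -0.05 and -0.05. The correlation across members with log2 coding length was -0.69, -0.69 and -0.63, a description over 78 genes. At E14.5 and E16.5 the median of the same 9 members was -0.08 to 0.03 in the 3 classes. The short members also lay at the upper end of the E16.5 minus E12.5 comparisons, with medians of 0.10 against -0.21 for longer members in Cdh5-gated and 0.44 against 0.21 in Col1a1-gated barcodes. In Tnnt2-gated barcodes they were 0.11 against -0.06 from E14.5 to E16.5, a step that compares no E12.5 library. They were -0.03 against -0.15 from E12.5 to E14.5 and -0.31 against -0.27 from E10.5 to E12.5. Among longer members Rpl15 (612 bases) differed between replicates at E14.5 (0.18, 0.22 and 0.17) and E16.5 (0.27, 0.22 and 0.25) in the 3 classes.

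**Figure D5:**
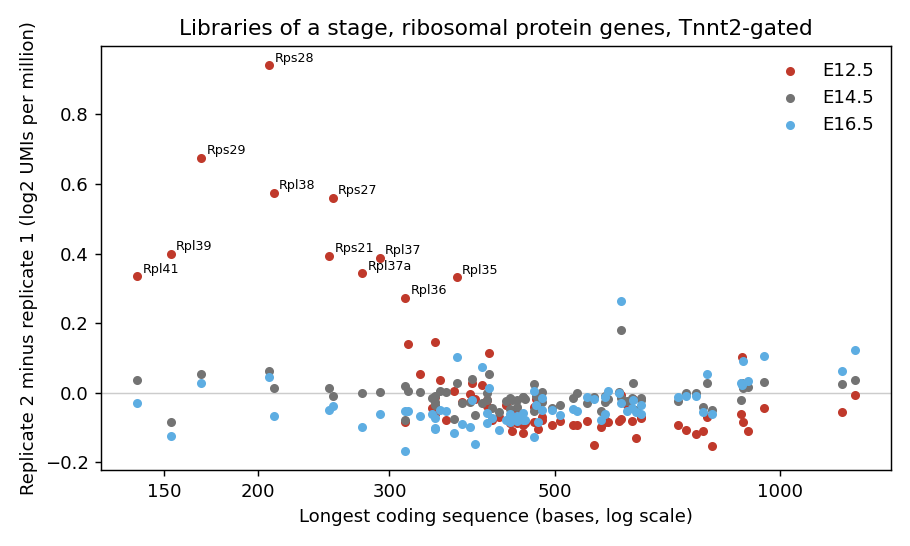
The log2 difference between replicate 2 and replicate 1 in Tnnt2-gated barcodes (vertical axis) is plotted against the longest coding sequence in bases (horizontal log axis) for 78 members at E12.5, E14.5 and E16.5. At E12.5 the members shorter than 300 bases have a median of 0.40 with Rps28 at 0.94, and the median of the same members is 0.01 at E14.5 and -0.05 at E16.5.

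The genes around the ribosome were read from lists for comparison. Over all genes, 34.8% were called lower and 35.9% higher in Tnnt2-gated than in Col1a1-gated barcodes, and 36.0% and 38.8% against Cdh5-gated ones. Of 6 further ribosomal protein genes whose symbols lie outside the rule, 4 were lower in Tnnt2-gated than in Col1a1-gated barcodes and 5 lower than in Cdh5-gated barcodes, with medians of -0.57 and -0.65 like the members; Rps3a1 was at -0.65 and -0.57 and Gnb2l1 (Rack1) at -0.71 and -0.74. Of 8 elongation factors, 4 were lower and 2 higher against Col1a1-gated barcodes, with a median of -0.21, and 3 lower and 2 higher against Cdh5-gated ones, with a median of 0.01 beside 0.03 for all genes. Against Col1a1-gated barcodes Eef1b2 was at -0.98 and Eef1g at -0.94, while Eef1a2, the muscle and neuron form of the factor that brings aminoacyl-tRNA, was higher by 5.51 (SE 0.23). Of 23 initiation factors and other messages with a pyrimidine start, 11 were lower and 6 higher against Col1a1-gated and 12 lower and 4 higher against Cdh5-gated barcodes, Npm1 (-0.84 and -0.66) among them. Over time in Cdh5-gated barcodes 16 of these 23 and 20 of 30 ribosome biogenesis genes fell from E12.5 to E16.5, where 22.6% of all genes were called lower, with Nhp2 at -0.70 and Fbl, the methylase of ribosomal RNA, at -0.63. In Tnnt2-gated barcodes 15 of the 30 biogenesis genes fell from E12.5 to E14.5 (16.3% of all genes), and the 6 that fell from E14.5 to E16.5 were at the background of 19.9%. Of 14 growth-control genes 8 were higher and 4 lower in Tnnt2-gated than in Col1a1-gated barcodes. Of these, Mtor (1.43) and its target Eif4ebp1 (1.63) were higher and Myc (-2.75) lower, named after their values were seen.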

How the data were processed

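Single-cell libraries of mouse embryos and hearts were read from 10 matrices covering 12 of 13 samples, since E16.5 replicate 1 and P3 each pool 2 samples; E8.5 replicate 1 was not analysed here. The deposited values are raw UMI counts per gene and barcode, which the authors made with Cell Ranger on mm10 (version 2.1.1 per the labels, 3.1.0 per the file headers and 3.0.0 at P3). The embryonic matrices list every barcode and the P3 matrix was filtered. Barcodes were kept and gated as given in the report, those passing more than 1 gate were left out, and UMIs were summed per class and library. Sums of at least 20 barcodes entered the tests, and smaller ones are given as values only. No doublet caller was run. Sums were tested with edgeR 4.0.16 (R 4.3.3; TMM, quasi-likelihood, Benjamini-Hochberg over all genes tested), per class across stages and in the 6 heart libraries with the library as a block, with DESeq2 1.42.0 as an alternative. Descriptions were made in Python 3.11.15. The fits were tested on simulated data with 200 changed genes. The genes named are, in each comparison, among the 5 members farthest above and the 5 farthest below the member median, together with the paralogues and their partners, the stalk proteins, and Rpsa, Rps6, Rps19, Rpl5, Rpl11, Rpl38, Rps27a and Rpl13a, and others are named as seen in the values, Rpl6l and the members that differ between libraries among them. Members, lists and tests were chosen with earlier results of these data known. The mitochondrial ceilings of the study, the tests of the difference between classes and the mitochondrial ribosomal protein list were chosen after the data had been seen. The values of some single genes are not reported here.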

Additional observations from a re-analysis of the deposited data

Results flagged for a closer look

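The change from E12.5 to E16.5 differed between classes. A fit over the 6 heart libraries with a term for the difference called it lower in Cdh5-gated than in Col1a1-gated barcodes for 76 of 82 members, and lower in Tnnt2-gated than in Col1a1-gated barcodes for 74 of 82. Both share the Col1a1-gated sums, of which those of E12.5 rest on 58 and 163 barcodes.

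Barcodes below the mitochondrial floor of 1% were left out of the comparisons, other than in the alternative without the floor, and also carried the members. In Tnnt2-gated barcodes below the floor, the member share was 31.9% and 33.3% at E12.5 (879 and 1177 barcodes), 29.8% and 30.2% for E14.5 (578 and 439) and 30.7% and 29.5% for E16.5 (332 and 234), above the share of the kept Tnnt2-gated barcodes of the same library each time. Their median depth was 4170 to 5199 UMIs, against 13510 to 25212 in the kept ones.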

How the results depend on the processing

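Counts of members called lower in Tnnt2-gated barcodes were, from E10.5 to E12.5 (51), 31 without the mitochondrial floor, 22 with gate thresholds times 2 and 32 to 59 leaving out 1 library. From E12.5 to E14.5 (15) they were 36 with library totals only, 28 with DESeq2, 40 without the mitochondrial floor, 6 with barcodes thinned to 2000 UMIs, 39 under the mitochondrial ceilings of the study and 2 to 47 leaving out 1 library. From E14.5 to E16.5 (6) they were 64 with library totals and 0 to 2 leaving out 1 library. In Cdh5-gated barcodes (50) they were 30 with library totals and 26 to 52 leaving out 1 library. Members called higher in Col1a1-gated barcodes (26) were 11 with library totals, 56 with gate thresholds divided by 2, 10 with thresholds times 2, 50 with thinning and 9 to 18 leaving out 1 library. Those higher in Cdh5-gated than in Col1a1-gated barcodes (20) were 5 with library totals, 12 without the mitochondrial floor, 34 and 6 with thresholds divided by 2 and times 2, 4 with thinning and 7 to 30 leaving out 1 library. The counts lower in Tnnt2-gated barcodes stayed at 76 to 78 against Col1a1-gated and 78 to 79 against Cdh5-gated barcodes leaving out 1 library. The share of UMIs in Tnnt2-gated barcodes, E16.5 minus E12.5 (-5.47 points), was -4.72 with mt- genes out of the total, -4.75 with mt- and globin genes out, -6.28 without the mitochondrial floor, -4.92 with thresholds times 2 and -5.76 to -5.18 leaving out 1 library. In Col1a1-gated barcodes (2.83 points) it was 1.33 with thresholds times 2, 3.79 as a median over barcodes and 2.32 to 3.34 leaving out 1 library, and in Cdh5-gated barcodes (-1.38) -2.02 to -0.734. For Rps28, Col1a1-gated, E16.5 minus E12.5, the log2 fold change was -0.00279 with thresholds times 2, and for Rpl36, Tnnt2-gated minus Col1a1-gated in hearts, it was -0.179 with library totals only. Of 1036 alternative values for named members, 950 kept their state of being called or not, 71 lost the call and 13 gained it. A further 2 changed sign where the main or the alternative fit called the gene. Changes of sign in values called in neither fit are counted among the 950. The causes were not tested. The numbers 1 and 2 of the libraries come from the sample names, and the labels tie them to nothing shared across stages. Over the 4 stages same-numbered libraries did not all deviate together (correlations with E10.5 -0.187 to 0.00129). Among the heart stages alone they did in Tnnt2-gated (0.182 to 0.443) and Cdh5-gated sums (0.190 to 0.306), but not clearly in Col1a1-gated ones (0.0551 to 0.151). With the replicate block the stage counts were 55, 21, 6, 47 and 28, Rps29 was called higher in Cdh5-gated barcodes (0.301) and no other call of a named member changed, and without the library block the class counts were 77, 78 and 20, each within 1.5 times the main count, with the call of Rpl36 against Cdh5-gated barcodes lost. Rare members are limited by depth, and E8.5 and P3 by having 1 matrix.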

Other observations

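The proteins of the mitochondrial ribosome are encoded by a separate set of nuclear genes, which make the few respiratory chain proteins of the mitochondrial genome. Their list of 77 genes was chosen after the data had been seen. In Tnnt2-gated barcodes 69 of the 76 tested were higher and 2 lower than in Col1a1-gated barcodes, with a median log2 fold change of 0.76 (35.9% and 34.8% of all genes were higher and lower), where the cytosolic members had a median of -0.57. Against Cdh5-gated barcodes 62 were higher and 3 lower (38.8% and 36.0%), with a median of 0.60. In Tnnt2-gated barcodes 42 of 77 rose and 1 fell from E10.5 to E12.5 (20.6% and 17.7%), with a median of 0.30 beside -0.26 for the cytosolic members. From E12.5 to E14.5, 2 rose and 11 fell (18.7% and 16.3%), with a median of -0.09 beside -0.14, so that both sets lay below 0 there. From E14.5 to E16.5 in Tnnt2-gated barcodes 55 of 77 rose and 0 fell (20% and 19.9%; edgeR's quasi-likelihood test), with a median of 0.28 beside -0.05 for the cytosolic members. In Cdh5-gated barcodes 63 of 76 fell from E12.5 to E16.5 (22.6%) with a median of -0.48. In Col1a1-gated barcodes 7 of 76 fell with a median of -0.14. There 22.2% of all genes were called in either direction and 11.7% higher, so this count was near the background of genes called lower.

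Cell cycle genes differed between the same groups. Of 12 G2/M genes, 9 were higher in Tnnt2-gated than in Col1a1-gated barcodes (35.9% of all genes), while against Cdh5-gated ones 5 were higher and 2 lower (38.8% and 36.0%). From E14.5 to E16.5 in Tnnt2-gated barcodes 3 fell and 0 rose (19.9% and 20%; edgeR's quasi-likelihood test). Of the 12 genes, 7 rose from E12.5 to E16.5 in Col1a1-gated barcodes (11.7%), while 5 fell and 1 rose in Cdh5-gated barcodes (22.6% and 20.8%). Of 14 growth-control genes 3 rose and 2 fell from E14.5 to E16.5 in Tnnt2-gated barcodes, near the background of 20% and 19.9%.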
